A study of Mus musculus with 4 samples.

Results

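Ribosomal protein genes encode the proteins of the cytoplasmic ribosome, the particle that translates messenger RNA. Rps genes encode proteins of the small subunit, which reads the message, and Rpl genes those of the large subunit, which joins amino acids. Most of their transcripts begin with a run of pyrimidines, the 5′ TOP motif, through which cells raise or hold back their translation together, and mutations in several of these genes, RPS19 first among them, cause the red cell failure of Diamond-Blackfan anemia. A few have a second copy with a name ending in l or l1, made at a lower level or in other tissues.

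The genes were taken from the deposited gene list by symbol: Rpl or Rps followed by a digit, together with Rplp0, Rplp1, Rplp2 and Rpsa, and without the Rps6k kinases, names containing -ps and Rpl39l. This gave 85 of 32285 genes, 34 of the small and 51 of the large subunit by name. One of the 85, Rps19bp1, encodes a binding protein of Rps19 and not a ribosomal protein, and entered by its name. The 85 genes lie on 19 chromosomes, 14 of them on chromosome 7, 4 on X and 0 on Y (GENCODE M21 annotation of GRCm38).

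Mouse bone marrow was taken 10 weeks after transplantation, sorted on CD45.2, a surface antigen that tells donor from host blood cells, and counted with a 10x Genomics 5′ kit. There were 4 libraries with 1 sample each: control Kit+, Mll3/4 deleted Kit+, Mll3/4SI Kit+ and control B220lo cells, Kit marking stem and progenitor cells and low B220 the B lineage. Mll3 and Mll4 are histone methyltransferases that act at enhancers, and the title of the series names stem cell self-renewal, myeloid identity and B-cell priming as what they act on. The labels do not expand SI, do not name the Cre driver or host strain, and do not say how many mice entered a library. With 1 library per group no difference could be tested: the 95% intervals below cover counting error only, and both Kit+ comparisons share the same control library.

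The files held 12205 to 16861 barcodes per library, of which 11051 to 15380 were kept, with median depths of 11594 UMIs (unique molecules) in control Kit+, 6507 in deleted, 11969 in SI and 3246 in B220lo cells. Pairs of libraries shared 214 to 345 barcode sequences. The targeted genes do not check the labels, since transcripts counted from the 5′ end can lie outside a deleted part: Kmt2c (Mll3) stood at 58.1, 51.8, 62.7 and 144 CPM (a gene's UMIs scaled to the same total in each group of cells) and Kmt2d (Mll4) at 23.96, 20.1, 20.7 and 41.0 CPM in control Kit+, deleted, SI and B220lo cells.

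Cells were read in groups set by the UMIs of 1 gene: Hlf at 1 or more, a transcription factor of stem cells; Elane at 10 or more, neutrophil elastase; Car1 at 10 or more, a carbonic anhydrase of red cell precursors; Fcer1a at 3 or more, a receptor chain of basophils and mast cells; and Cd79a at 3 or more, a chain of the B-cell receptor. Cd79a cells were split by their assembled immunoglobulin contigs: no contig, heavy chain only, heavy and light, or light only. The groups overlap. Of the 186 deleted Hlf cells, 68 also met the Elane and 24 the Cd79a threshold, against 707 and 1 of 2493 control Hlf cells. Of the 554 deleted Elane cells, 92 also met the Cd79a threshold, against 5 of 4223 controls. Of the 3238 SI Hlf cells, 700 also met the Fcer1a threshold, against 17 of 2493 controls. The same 700 are among the 2341 SI Fcer1a cells, so the SI Hlf and Fcer1a groups are not separate. The 8 B-lineage markers summed to 785 CPM in deleted and 43.2 CPM in control Hlf cells, and to 724 and 53.3 CPM in Elane cells. Values for cells of 1 group only are given beside the shares.

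The start regions of 8 of these genes are shown: Rps19, Rpl13a, Rpl15 and Rps27l with its near copies, which are among the genes farthest from their comparison libraries below, and the pair Rpl22 and Rpl22l1 as copies that differ at their starts. Each run gives 40 bases before and 20 from the annotated start, in lower case, with each run of C or T of at least 6 bases that lies within 3 bases of the start in capitals (RefSeq, GRCm38.p6).
Rps27, chr3:90213629-90213688, minus strand: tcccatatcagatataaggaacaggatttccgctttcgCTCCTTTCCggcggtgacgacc
Rps27rt, chr9:114982720-114982779, minus strand: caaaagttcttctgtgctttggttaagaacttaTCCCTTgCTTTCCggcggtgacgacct
Rps27l, chr9:66946046-66946105, plus strand: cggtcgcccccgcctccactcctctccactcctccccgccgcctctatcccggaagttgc
Rpl22, chr4:152325686-152325745, plus strand: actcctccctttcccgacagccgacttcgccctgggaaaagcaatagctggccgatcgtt
Rpl22l1, chr3:28805468-28805527, plus strand: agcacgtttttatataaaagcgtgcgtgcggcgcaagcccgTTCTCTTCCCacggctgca
Rps19, chr7:24884552-24884611, plus strand: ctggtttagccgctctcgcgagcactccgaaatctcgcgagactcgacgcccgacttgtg
Rpl13a, chr7:45128726-45128785, minus strand: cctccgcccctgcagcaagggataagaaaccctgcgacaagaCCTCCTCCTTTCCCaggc
Rpl15, chr14:18270967-18271026, minus strand: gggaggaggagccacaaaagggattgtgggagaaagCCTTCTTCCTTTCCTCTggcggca
The run reached 17 bases in Rpl15, 14 in Rpl13a, 10 in Rpl22l1 and 9 in Rps27, while Rps27l, Rpl22 and Rps19 had none at these starts. RefSeq lists 2 starts each for Rps27l and Rpl22 and 3 for Rps19, of which the first in the table is shown. Rps27rt had 2 runs of 6 bases, parted by 1 base. Transcripts of Rps27 and Rps27rt share an exact stretch of 341 bases, so reads of Rps27rt (a single-exon copy on chromosome 9) cannot be told apart from Rps27 over that stretch. Transcripts of Rps27 and Rps27l share at most 11 bases in a row, and those of Rpl22 and Rpl22l1 at most 26, which reads can tell apart.

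Start regions from 250 bases before to 50 after the start were available for 65 of the 85 genes, in 77 windows. A pyrimidine run at the start was present in 29 of 77 windows (37.7%), against 16.8% of the 32851 windows of all genes. The count depends on the annotated start: runs farther from it, like the one early in the Rpl22 region shown, were not counted. The letters CCGGAAG, the core of an ETS-family motif, occurred on either strand in 26 windows (33.8%, against 8.86%). AAGATGGC, the core of the YY1 motif, occurred in 8 (10.4%, against 2.75%) and TATAAA in 7 (9.09%, against 13.6%). The end of the first is the start of the second, and 0 of the 77 windows held them overlapped in that way. The median log2 ratio of the 28 genes with and the 35 without the pyrimidine run was -0.10 and -0.049 in SI against control Elane cells, the widest gap of 9 comparisons, and 0.27 and 0.22 in deleted against B220lo no-contig cells. These differences were not tested.

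Over all kept cells, which differ in kind between libraries, the 85 genes held 15.7% of UMIs in B220lo, 20.4% in deleted, 22.9% in SI and 24.3% in control Kit+ cells. Within the groups the share was highest in Car1 cells: control and deleted both stood at 26.4% and SI stood at 25.9%. Hlf cells had 24.2% in control (95% interval 24.17 to 24.20), 22.9% in deleted and 23.2% in SI. Fcer1a cells had 24.1% in 127 control and 23.9% in 2341 SI cells. Elane cells had 22.5%, 21.0% and 20.9% in the same order of libraries. Cd79a cells had 20.3% in deleted no-contig and 20.4% in deleted heavy-only cells, and 16.5% and 18.5% in those of the B220lo library. B220lo Cd79a cells with heavy and light contigs had 15.6%, and the share of 528 with light only lay between 14.95% and 15.05% (95% interval). In that library 58 Hlf cells had 17.9% and 102 Elane cells 17.4%. Fewer than 50 Cd79a cells were present in the control Kit+ library (47, at 19.4%) and the SI library (28, at 18.7%), and only 4 Fcer1a cells in the deleted library, so these were not compared.

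**Figure D1:**
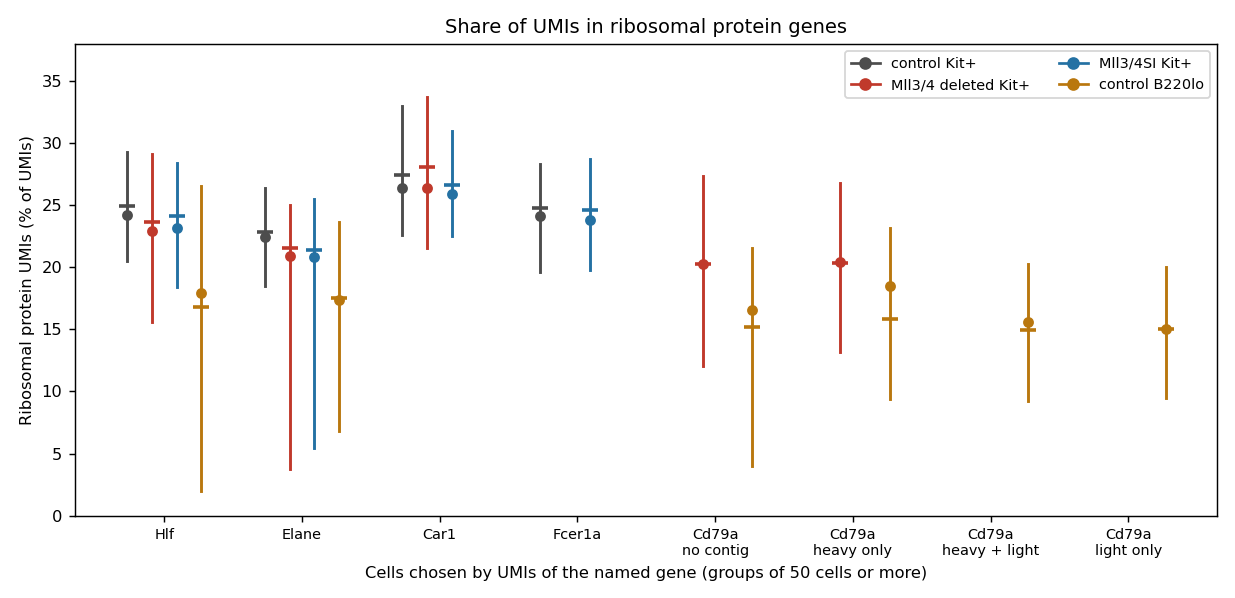
Share of UMIs in the 85 genes (percent, y axis) in each group of cells (x axis) and library (colour), for groups of 50 cells or more. The dot is the share over summed UMIs, the short bar the median cell and the line runs from the 10th to the 90th percentile of cells; Car1 cells stand highest, each Kit+ group stands at 20.3% or above and each B220lo group at 18.5% or below, and the lines of deleted and SI Elane cells reach down to 3.72% and 5.42%.

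Against control Kit+ cells, the log2 ratio of the share was -0.077 in deleted and -0.061 in SI Hlf cells, and -0.10 and -0.11 in Elane cells, which is 1.26 and 1.005 percentage points lower in Hlf cells and 1.52 and 1.62 points lower in Elane cells. In Car1 cells it was 0.0022 for deleted (interval -0.0021 to 0.0064, 62 cells) and -0.027 for SI, and in Fcer1a cells -0.017 for SI. In deleted Hlf cells that met no other threshold (102 cells, against 1638 controls) the log2 ratio was -0.0040, with shares of 24.9% and 24.97%, and between 8000 and 20000 UMIs it was -0.015. Markers of other cell types differed between the same cells. Summed red cell markers stood at 741.5 CPM in control, 167 in deleted and 247 in SI Hlf cells and at 127, 20.5 and 52.0 CPM in Elane cells, and mast cell and basophil markers at 350.5, 247 and 1132.5 CPM in Hlf cells and 300.3, 175 and 758 CPM in Elane cells. The 6 neutrophil markers summed to 16700 CPM in control, 22690.2 in deleted and 12606 in SI Hlf cells and to 42815, 47448 and 48066 CPM in Elane cells. Their part in the share was not tested. In Elane cells of 1 group only the log2 ratio was -0.094 for deleted and -0.11 for SI. The Fcer1a value turned to 0.035 between 8000 and 20000 UMIs. At that depth the Car1 values were -0.050 for deleted and -0.074 for SI, and the deleted Car1 value kept its direction in 5 of 10 alternatives.

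In Elane and Hlf cells the libraries also differed in how many barcodes had a small share of ribosomal protein transcripts. The cells' own shares had a main peak near the pooled value and a small peak below 10%, which in Elane cells held 288 barcodes in control (6.82% of 4223), 67 in deleted (12.1% of 554) and 377 in SI (11.3% of 3345). In Hlf cells it held 96 barcodes in control (3.85% of 2493), 14 in deleted (7.53% of 186) and 182 in SI (5.62% of 3238). These control Elane barcodes had a pooled share of 3.42%, a median of 5159 UMIs against 14745 in the rest, and 2.75% mitochondrial UMIs against 0.837%. Eef1a1, the elongation factor that brings transfer RNA to the ribosome and itself a 5′ TOP transcript, stood at 2535 CPM in them and 8381 in the rest, and Tpt1, another such transcript, at 443 and 2544 CPM. Abundant transcripts of other kinds were low too: Gapdh, a glycolytic enzyme, stood at 829.5 and 4447 CPM and Actb, a cytoskeletal actin, at 1532 and 2959 CPM. The nuclear RNA Malat1 stood at 5386 and 1906 CPM, Mpo (myeloperoxidase) at 45953 and 15241 CPM and Cdk6 at 2565 and 491 CPM. S100a9 and Camp, made by later neutrophils, stood at 4822 and 2720 CPM in these control barcodes and 244 and 56.5 in the rest, and at 2348 and 1027 against 445 and 124 CPM in SI. In deleted Elane cells the order was the other way, with S100a9 at 12.7 against 369 CPM and Camp at 0 against 108 CPM. Without barcodes under 10%, a limit set on the measured share, which by itself shrinks a difference in that share, the log2 ratios were -0.058 and -0.051 in deleted and SI Hlf cells and -0.068 and -0.081 in Elane cells. What these barcodes are was not tested. Mpo, Cdk6, Malat1, Gapdh, Actb, S100a9 and Camp were picked after their values were seen.

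**Figure D2:**
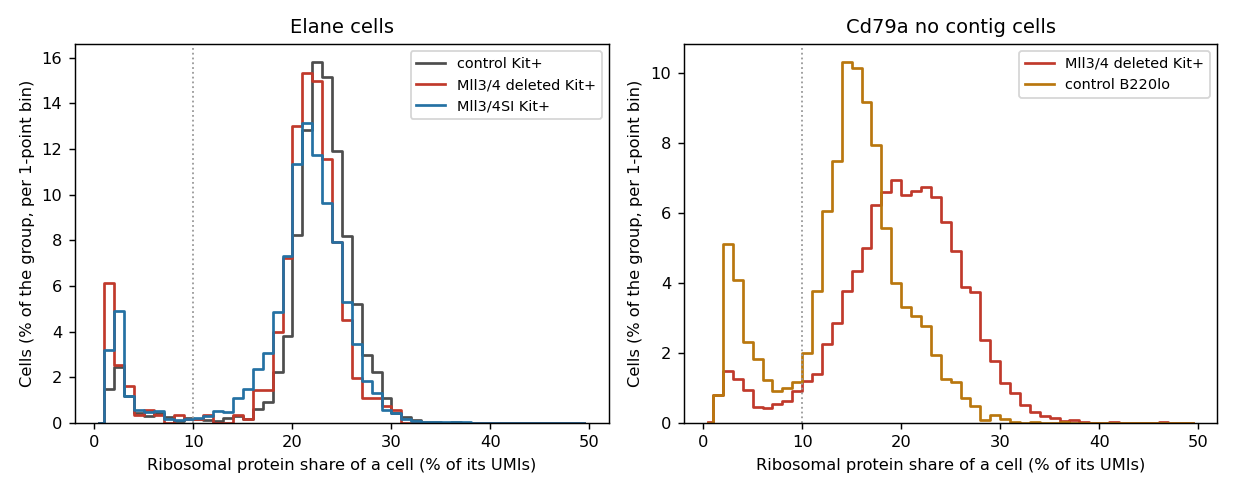
Distribution of the share per cell (x axis, percent of a cell's UMIs) as the percent of cells in each 1-point bin (y axis), for Elane cells of the 3 Kit+ libraries and for Cd79a no-contig cells of the deleted and B220lo libraries. The dotted line at 10% separates the low peak, which holds 6.82% (control), 12.1% (deleted) and 11.3% (SI) of Elane cells and 7.38% and 18.4% of deleted and B220lo no-contig cells.

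Of the 85 genes, 83 reached 10 CPM in at least 1 group of cells and 80 reached 500 CPM. Rpl10l, a copy known from the testis, had 0 UMIs in all kept cells, and Rpl3l, a copy known from muscle, had 330 UMIs and never passed 5.47 CPM. The others kept nearly fixed proportions to each other: the share of a gene among ribosomal protein UMIs differed between the highest and lowest of the control Kit+ groups by a median of 1.13-fold over genes. The widest ranges in that library belonged to Rps27l, from 0.0943% in Fcer1a to 0.194% in Car1 cells, Rpl41, from 0.357% to 0.582%, and Rpl31, from 0.244% to 0.382%, all lowest in Fcer1a and highest in Car1 cells.

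Few of the 83 genes compared passed the limit set for a difference, a ratio of 5 to 4 or more in either direction. In deleted Hlf cells 1 was higher (Rps27l) and 1 lower (Rps27rt), against 9.61% of all genes higher and 11.8% lower, and against 5.58% and 3.43% of genes of at least 500 CPM, a level more like that of the members. The 1 higher was 4 in cells of 1 group only and 4 with doubled thresholds. In SI Hlf cells 0 were higher and 1 lower (Rpl13a), against 5.36% and 5.09% of all genes and 3.06% and 4.37% of those at 500 CPM. In deleted Elane cells 1 was higher (Rps27l) and 1 lower (Rps27rt), against 6.51% and 6.71% of all genes and 1.6% and 2.8% at 500 CPM; with doublets kept or a pseudocount of 10 CPM 0 were lower, and relative to ribosomal protein UMIs 3 were higher. In SI Elane cells 0 were higher and 1 lower (Rpl13a), against 5.81% and 2.76% of all genes and 2% and 2.8% at 500 CPM. In deleted Car1 cells 1 was higher (Rps19bp1) and 0 lower, against 12% and 11.5% of all genes and 1.21% and 1.21% at 500 CPM. In SI Car1 cells 0 were higher and 1 lower (Rpl13a), against 3.52% and 2.43% of all genes and 1.98% and 1.98% at 500 CPM. Relative to ribosomal protein UMIs the log2 ratio of Rpl13a was -0.29 in SI Elane and -0.32 in SI Car1 cells, and 0 were past the limit below in either. In SI Fcer1a cells 3 were higher and 0 lower, against 17.4% and 17.7% of all genes and 11.8% and 10.6% at 500 CPM. The members' counts stood below the share of all genes in each of these 7 comparisons and both directions. In Elane and Car1 cells 1 of 83 was close to the share of genes at 500 CPM, a class that includes members. The members called in deleted Hlf, Elane and Car1 cells lay below 500 CPM and are not in that class. Without members, 4 of 171 genes at 500 CPM were higher and 7 lower in deleted Elane cells. In deleted Car1 cells 3 of 168 were higher and 3 lower.

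**Figure D3:**
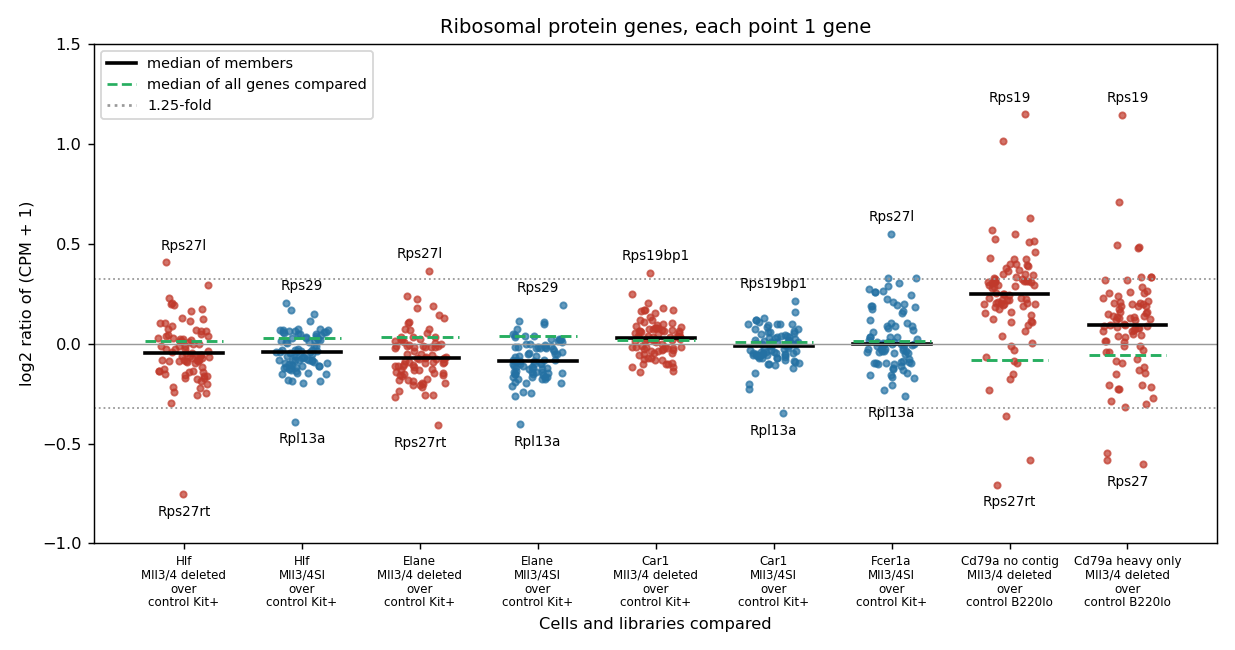
Log2 ratio of CPM plus 1 (y axis) for each of 83 genes in 9 comparisons (x axis), with the median of the genes (black), the median of all genes compared (green, dashed) and the limits at a ratio of 5 to 4 (dotted). Most points lie within the limits in Kit+ comparisons; Rpl13a is lowest in all 4 SI comparisons, Rps27l is highest in deleted Hlf and Elane cells, and Rps19 is highest in both Cd79a comparisons.

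The median log2 ratio of the members was -0.049 in deleted Hlf, -0.043 in SI Hlf, -0.074 in deleted Elane and -0.086 in SI Elane cells, where the medians of all genes compared were 0.012, 0.029, 0.035 and 0.041. In SI Elane cells 26 of 34 small-subunit and 41 of 49 large-subunit genes were below 0. In deleted Elane cells the counts below 0 were 25 of 34 and 36 of 49. In Car1 cells the members' medians were 0.031 for deleted and -0.012 for SI, and in SI Fcer1a cells the median was 0.00029.

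In Hlf, Elane and Car1 cells of the SI library the gene farthest from control was Rpl13a (chr7:45125558-45128761, minus strand), a large-subunit protein also known for silencing messages of inflammatory genes. In Hlf cells it stood at 1872 CPM (1856 to 1887) in control, 1903 in deleted and 1428 (1417 to 1439.5) in SI cells. In Elane cells it stood at 1571, 1606 and 1188 CPM, in Car1 cells at 2405, 2557 and 1889 CPM, and in Fcer1a cells at 1835 CPM in control and 1531 CPM in SI. SI was the lowest Kit+ library each time and deleted stayed at or above control. B220lo cells were also below control Kit+ in CPM, at 1550 in 58 Hlf and 1300 in 102 Elane cells. As a percent of ribosomal protein UMIs, Rpl13a made up 0.774% in control Kit+, 0.616% in SI and 0.865% in B220lo Hlf cells. In Elane cells the same libraries had 0.699%, 0.570% and 0.748%. The groups overlap, with 700 cells shared by SI Hlf and SI Fcer1a. The log2 ratios of SI over control were -0.39, -0.40, -0.35 and -0.26. Over all alternatives they stayed between -0.44 and -0.24.

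After Rpl13a, the genes lowest in SI Hlf and Elane cells were Rps9, Rps4x and Rps3a1, proteins of the small subunit: Rps4x stood at 6154 CPM in control and 5139 in SI Elane cells (log2 ratio -0.26), and Rps9 at 5178 and 4516 CPM in Hlf cells (-0.20). The 3 highest in Hlf and Elane cells encode short proteins of the small subunit. Rps29, a zinc-binding protein, stood at 1242 and 1430 CPM in control and SI Hlf cells, 1109 and 1270 in Elane, 1393 and 1524 in Car1 and 1254 and 1484 in Fcer1a cells. Rps28 stood at 1423 and 1575 CPM and Rps21 at 1483 and 1666 CPM in Hlf cells. In deleted cells these genes did not stand above control together: in Hlf cells Rps29 was at 1254, Rps28 at 1261 and Rps21 at 1388 CPM, the last pair below control.

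In SI Fcer1a cells the 3 genes past the limit were Rps27l (333 CPM against 227 in control, log2 ratio 0.55), Rpl31 (741 against 589, 0.33) and Rpl41 (1080 against 861, 0.33), all from 127 control cells. With doublets kept the 3 log2 ratios were 0.29, 0.20 and 0.19, none past the limit, and with CPM taken without ribosomal protein and mitochondrial genes 1 of the 3, Rps27l, was past it. Markers of other cell types also differed between these cells: 6 neutrophil markers summed to 8728 CPM in control and 5443 in SI, and 6 red cell markers to 469.7 and 167 CPM. The 6 mast cell and basophil markers were split. Mcpt8 (204 CPM in control and 28.0 in SI), Gata2 (362 and 204) and Ms4a2 (335 and 270) were lower in SI. Cpa3 (835 and 1573) and Hdc (227 and 258) were higher. So was Fcer1a (509 and 1158), but its UMIs were used to choose these cells. The part of all these markers in the result was not tested. In these cells 8 of 20 ribosome assembly genes were past the limit in SI and 0 lower (median log2 ratio 0.28, all genes 0.011), where 17.4% of all genes were higher and 17.7% lower.

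In deleted Hlf and Elane cells the highest gene relative to control was the copy Rps27l. It is a small-subunit protein closely like Rps27 and a known target of p53. It stood at 306 CPM (300 to 313) in control, 406 (384 to 429) in deleted and 310 in SI Hlf cells, and at 331, 426 and 339 CPM in Elane cells. The log2 ratios of deleted over control were 0.41 and 0.36, and over all alternatives they stayed between 0.34 and 0.62. In Car1 cells it stood at 512, 549 and 508 CPM, with overlapping intervals for control (505 to 519) and deleted (509 to 592). Its partner Rps27 stood at 1048 and 1005 CPM in control and deleted Hlf cells and 793 and 752 in Elane cells. Its intervals overlapped in Hlf cells (1036 to 1059.5 and 969.8 to 1041), and relative to ribosomal protein UMIs its log2 ratios were 0.018 and 0.025, the other direction; with doublets kept the ratio in Hlf cells was 0.0022.

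Rpl35a, another Diamond-Blackfan gene of the large subunit, was among the 3 highest in deleted cells of all 3 Kit+ groups, at 911 and 1117 CPM in control and deleted Hlf cells (log2 ratio 0.29), 886 and 1035 in Elane (0.22) and 1076 and 1280 in Car1 cells (0.25). It was lower in SI, at 834, 783 and 1017 CPM. Among the genes lowest in the deleted library was Rps9, at 5178 and 4212 CPM in control and deleted Hlf cells (-0.30). Rps27rt had 35 UMIs in deleted Hlf cells (11.5 CPM, against 20.03 in control), and it shares its sequence with Rps27. In Car1 cells the highest in both deleted and SI was Rps19bp1, which encodes a binding protein of Rps19. It stood at 56.5 CPM in control, 72.4 in deleted and 65.6 in SI (log2 ratios 0.35 and 0.21). The deleted value rests on 92 UMIs (interval 0.053 to 0.65), and the gene was not past the limit in cells of 1 group only, with doublets kept or with a pseudocount of 10 CPM. Markers of other cell types differed in Car1 cells too. B-lineage markers summed to 395 CPM in deleted and 8.79 in control, and neutrophil markers to 546 and 1270 CPM. Their part in these values was not tested.

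Among the other copies, Rpl22l1, a copy of Rpl22 that can take its place in the ribosome, stood at 647 CPM in control, 741 in deleted and 611 in SI Hlf cells and at 578, 658 and 538 CPM in Elane cells (log2 ratios of deleted over control 0.20 and 0.19), while Rpl22 stood at 1613, 1612 and 1625 CPM in Hlf cells. Rpl7l1, which acts in ribosome assembly, stood at 98.7 and 116 CPM in control and deleted Elane cells (0.24), and Rpl7 at 1549 and 1671 CPM. Rpl36al stood at 991, 1015 and 1042 CPM and its partner Rpl36a at 1574, 1436 and 1510 CPM in control, deleted and SI Elane cells.

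**Figure D4:**
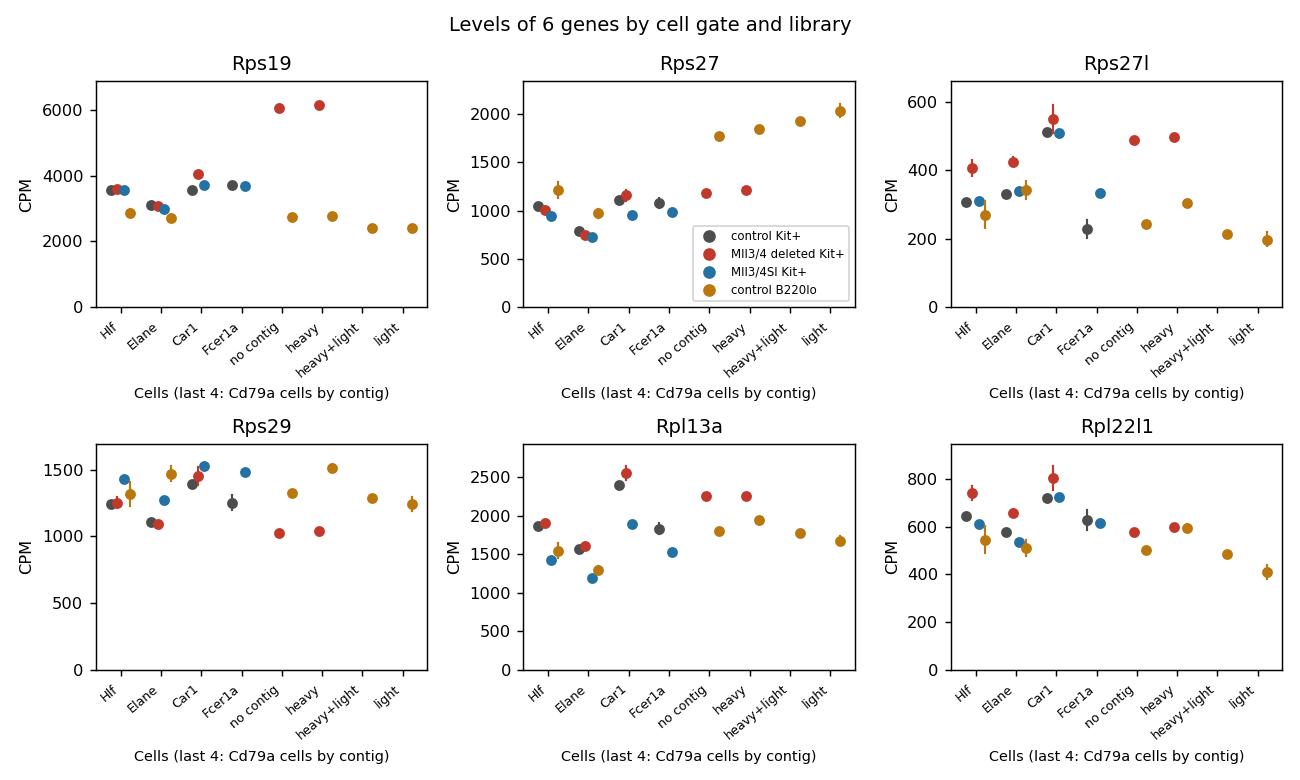
CPM (y axis, from 0) of Rps19, Rps27, Rps27l, Rps29, Rpl13a and Rpl22l1 in each group of cells (x axis) and library (colour), with 95% counting intervals. Rps19 stands at 6069 and 6143 CPM in deleted Cd79a cells and at 4035 CPM or below everywhere else; Rpl13a is lowest of the Kit+ libraries in SI cells, and Rps27 is highest in B220lo Cd79a cells.

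Genes that build or serve the ribosome were counted beside the members, from lists fixed by gene name. In deleted Hlf cells 2 of 20 ribosome assembly genes were past the limit above and 0 below, with a median log2 ratio of 0.19, and in deleted Elane cells 3 and 0 (0.15). Beside the 9.61% and 6.51% of all genes that were higher there, the count in Hlf cells is about the background. In SI the median was 0.044 in Hlf and -0.059 in Elane cells, with 0 of 20 past the limit either way. Of 78 mitochondrial ribosomal protein genes, 6 were higher and 1 lower in deleted Hlf cells (median 0.11), and 5 and 0 in Elane cells (0.14), counts no larger than those same shares of all genes give. The medians of the 14 other 5′ TOP transcripts were -0.042 in deleted and -0.036 in SI Hlf cells, -0.060 in deleted and -0.10 in SI Elane cells, with 0 of 14 past the limit in each. The 12 cell cycle genes had 0 past the limit in these 4 comparisons.

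Deleted Kit+ cells with Cd79a were set against B220lo control cells of the same contig state. Sort and genotype differ together here and cannot be told apart, and the cells are not at the same stage. Over Cd79a cells of all contig states, Ms4a1 (CD20), a marker of later B cells, stood at 0.602 CPM in deleted and 392.1 CPM in B220lo cells. Those totals include cells with heavy and light contigs, 19 of 12591 deleted and 6047 of 10839 B220lo cells, which enter neither comparison. Median depths were 6458 and 3077 UMIs over all Cd79a cells, 6444 and 3009 in no-contig and 6510.5 and 3242 in heavy-only cells. In no-contig cells the share of ribosomal protein UMIs was 20.3% in 9649 deleted and 16.5% in 2725 B220lo cells (log2 ratio 0.30), and in heavy-only cells 20.4% and 18.5% (0.14).

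The size of these ratios moved with depth and with low-share barcodes. Between 2000 and 8000 UMIs they were 0.48 and 0.47, while without barcodes under 10%, which made up 7.38% of deleted and 18.4% of B220lo no-contig cells, they were 0.19 and 0.073. Among no-contig cells of 12000 to 24000 UMIs the shares were 20.05% in deleted and 19.7% in B220lo cells, and among heavy-only cells of that depth 20.3% and 21.7%, with B220lo the higher. At 24000 UMIs or more B220lo was the higher in both, at 19.9% in 126 deleted and 21.98% in 48 B220lo no-contig cells and 20.7% and 23.7% in 52 and 56 heavy-only cells. The 12 cell cycle genes summed to 2591 CPM in deleted and 3765 CPM in B220lo heavy-only cells, and 8 of the 12 were past the limit below in deleted, where 29.2% of all genes were. In no-contig cells the same genes summed to 2768 CPM in deleted and 2850 CPM in B220lo. There 2 of the 12 were past the limit above and 0 below, where 23.3% and 31.5% of all genes were. Neutrophil markers summed to 1092 CPM in deleted and 595 in B220lo no-contig cells and to 1056 and 119.5 CPM in heavy-only cells, and the 8 stem cell markers to 322 and 75.4 CPM and to 322 and 54.7 CPM. The part of cycling, of depth and of these markers' cells in the ratio was not tested.

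Of the 83 genes, 26 were past the limit above and 3 below in deleted no-contig cells, against 23.3% of all 9027 genes higher and 31.5% lower, and against 35.9% and 16.9% of the 248 genes of at least 500 CPM. In heavy-only cells 8 were higher and 3 lower, against 26.2% and 29.2% of all genes and 22.6% and 19.8% of those at 500 CPM. Genes at 500 CPM include the members, and the members' 26 and 8 of 83 stayed below these last shares for higher genes, though 26 of 83 is above the 23.3% of all genes. The 26 was 9 without barcodes under 10%, 12 with doubled thresholds and 40 with CPM taken without ribosomal protein and mitochondrial genes. In heavy-only cells the counts were 5 higher and 7 lower both without barcodes under 10% and with doubled thresholds. The 3 lower were Rps27, Rps27rt and Rps29 both times. Relative to the summed ribosomal protein UMIs, 3 were higher and 10 lower in no-contig cells and 5 and 12 in heavy-only cells. Of 6 elongation factor genes 4 were higher in no-contig and 1 in heavy-only cells, with none lower in either. The 14 other 5′ TOP transcripts did not follow, with 0 higher and 2 lower in no-contig and 0 higher and 4 lower in heavy-only cells. Among 20 ribosome assembly genes 7 were higher and 0 lower in no-contig cells, and 1 was higher and 1 lower in heavy-only cells.

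Rps19 (ENSMUSG00000040952, chr7:24884371-24889806, plus strand), a small-subunit protein needed to mature the RNA of that subunit, was the highest member in deleted Cd79a cells relative to B220lo cells. Rps27l came next, close to it in no-contig cells (log2 ratio 1.02) and farther below in heavy-only cells (0.71). Rps19 stood at 6069 CPM (6052 to 6087) in deleted and 2739 (2712 to 2767) in B220lo no-contig cells, and at 6143 and 2777 CPM in heavy-only cells (log2 ratio 1.15 in both). Deleted and control cells of the other groups stood at 3600 and 3562 CPM in Hlf cells, 3064 and 3095 in Elane cells and 4035 and 3569 in Car1 cells. The 47 control Kit+ cells with Cd79a stood at 2842 CPM (2659 to 3034) and the 28 SI cells at 3450 CPM (3219 to 3692), both too few to compare. The 19 deleted cells with both contigs stood at 5737 CPM. Rps19 made up 3.01% of ribosomal protein UMIs in deleted heavy-only cells and 1.46% in deleted Elane cells. Over all alternatives the log2 ratios stayed between 0.85 and 1.21.

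The next gene downstream of Rps19 on the same strand is Cd79a itself (chr7:24897381-24902197), which was used to choose the cells, 7574 bases past the end of Rps19. Arhgef1, which begins 714 bases past Cd79a, stood at 256 CPM in deleted and 140 CPM in B220lo no-contig cells and at 252 and 114 CPM in heavy-only cells, against 88.3 and 88.1 CPM in deleted and control Elane cells. Cd79a stood at 4039 and 2496 CPM in no-contig cells. Rps19 was therefore read over bins of Cd79a UMIs, including cells below the threshold. In deleted no-contig cells it made up 1.46% of ribosomal protein UMIs in 579 cells with 0 Cd79a UMIs, 1.52% at 1 or 2, 2.55% at 3 to 5, 3.34% at 6 to 11, 3.21% at 12 to 23 and 2.93% at 24 or more. In B220lo no-contig cells the same bins ran 1.18%, 1.253%, 1.44%, 1.51%, 1.67% and 1.81%. In deleted heavy-only cells it was already 2.89% at 1 or 2 Cd79a UMIs (69 cells) and between 2.96% and 3.19% in the bins above, and in B220lo heavy-only cells it was between 1.34% and 1.57% in all bins. Some of these bins had small shares of ribosomal protein UMIs: 4.44% in the 69 deleted heavy-only cells at 1 or 2 (245 Rps19 UMIs) and 7.13% in deleted no-contig cells at 3 to 5, against 21.8% in deleted no-contig cells at 0, 19.99% at 1 or 2 and 20.4% at 12 to 23. Deleted cells thus stood above B220lo cells in every bin of both contig states that held 50 cells or more in each library, and by the least at 0 to 2 Cd79a UMIs in no-contig cells. Cd79a itself stood at 217 CPM in deleted and 0.720 CPM in control Elane cells. Whether low Cd79a counts in deleted cells are expression or background was not tested. In the deleted library 13213 of 13747 kept cells met some threshold, and 12591 met the Cd79a one. Of its 554 Elane cells, 92 met the Cd79a threshold. Deleted cells at 0 to 2 Cd79a UMIs thus include Elane cells, a group in which Rps19 also made up 1.46%. The bins therefore differ in kind of cell as well as in Cd79a UMIs. The deleted cells with 0 Cd79a UMIs were not identified further, and the cause was not tested.

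**Figure D5:**
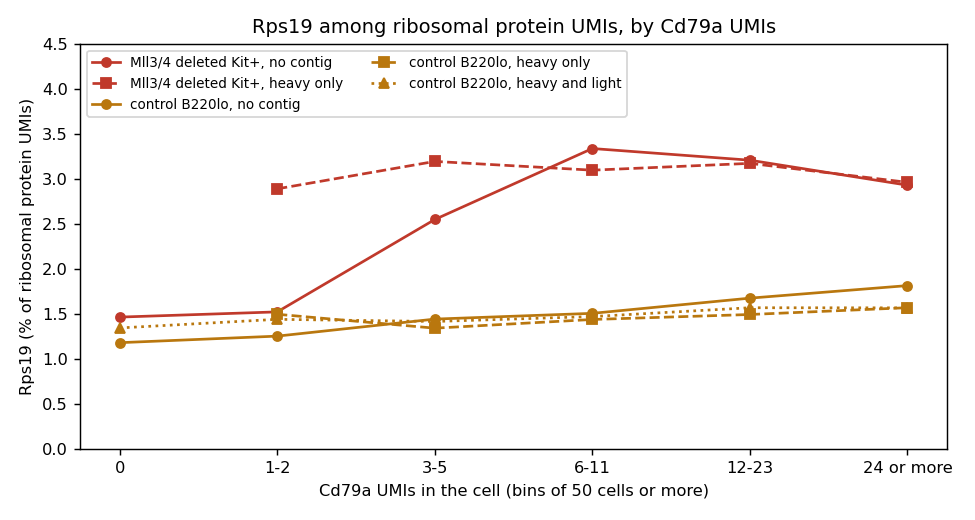
Rps19 as a percent of ribosomal protein UMIs (y axis) in cells binned by their Cd79a UMIs (x axis), for the deleted and B220lo libraries by contig state, in bins of 50 cells or more. Deleted no-contig cells go from 1.46% at 0 Cd79a UMIs to 3.34% at 6 to 11, while B220lo cells stay at or below 1.81%. The low bins of the deleted library include Elane cells, so the bins differ in kind of cell.

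Rps27l was the second highest member, at 490 CPM (485 to 495) in deleted and 242 (234 to 250) in B220lo no-contig cells and 496 and 304 CPM in heavy-only cells (log2 ratios 1.02 and 0.71). Within the B220lo library it stood at 304 CPM in heavy-only, 242 in no-contig, 214 in heavy-and-light and 198 in light-only cells, and the intervals of the last pair overlap. Rps27 had the opposite order between the libraries: 1180 and 1768 CPM in deleted and B220lo no-contig cells and 1212 and 1843 in heavy-only cells (-0.58 and -0.60). In B220lo cells Rps27 stood at 1926 CPM with heavy and light contigs and 2033 CPM with light only, while Elane cells of the same library had 973 CPM, a 2.42-fold range as a share of ribosomal protein UMIs. Rps29 stood at 1028 and 1323 CPM in no-contig and 1038 and 1515 CPM in heavy-only cells, lower in deleted in both, the reverse of its order in SI Kit+ cells. Rpl15, the gene with the longest pyrimidine run shown, stood at 2992 and 1934 CPM in no-contig cells (0.63).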

How the data were processed

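Single-cell transcripts of 4 libraries were analysed from the deposited UMI counts, whole-number counts per gene and barcode that were not normalized, and from the deposited immunoglobulin contig tables. Per the submitters' processing notes the counts were made with Cell Ranger 7.1.0 on mm10. Barcodes with at least 1000 UMIs, 500 genes and at most 10% mitochondrial UMIs were kept, which left 55216. Doublets were scored with Scrublet (scanpy 1.11.5, expected share 8%), and 3537 with a score of 0.25 or more were removed.

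UMIs were summed per library and group of cells. Shares carry exact binomial (Clopper-Pearson) and CPM exact Poisson 95% intervals (scipy 1.17.1). Log2 ratios were taken of CPM plus a pseudocount of 1, so those of low genes come out too small. Genes with a mean of at least 10 CPM over the libraries compared were used. The limit for a difference was a ratio of 5 to 4, and groups under 50 cells were not compared. The step was checked on simulated counts for SI against control Hlf cells (8825 genes): at each of 4 set folds, 100% of 50 changed genes came back within 0.25 log2 units. That check does not cover comparisons of fewer cells, genes of few UMIs or variation from library to library. Nor does it cover log2 ratios smaller than its margin of 0.25. Named genes were the 3 highest and 3 lowest members of each comparison and pairs of near copies, of which some are not reported here; the neighbours of Rps19 were followed after values were seen. Members and lists were chosen with earlier results of these data known. Positions came from GENCODE M21 and start regions from RefSeq. Alternatives changed the cell filter, doublets, groups, depth, totals, pseudocount and limit.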

Additional observations from a re-analysis of the deposited data

Results flagged for a closer look

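Rows with names containing -ps were not among the 85 genes but held UMIs. Rpl9-ps6 stood at 2834, 2485, 2613 and 1873 CPM over all kept control Kit+, deleted, SI and B220lo cells, Rpl10-ps3 at 291, 242, 263 and 170 CPM, and Rpl36a-ps1 at 0.602, 0.467, 0.550 and 0.298 CPM. They were listed because they carry signal outside the genes analysed. Transcripts of Rpl9-ps6 and Rpl9 share an exact stretch of 402 bases and those of Rpl10-ps3 and Rpl10 one of 740 bases, so counts could be split between them. Adding these rows to the members changed no direction of the share.

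Rpl39l, a copy of Rpl39 left out by the rule, had 0 UMIs in all kept control Kit+ and deleted cells, which allows up to 0.0215 and 0.0270 CPM (3 counts). It stood at 29.1 CPM (4392 UMIs) in the SI and 1.45 CPM (112 UMIs) in the B220lo library. In SI it stood at 29.2 CPM in Hlf, 25.6 in Elane, 4.83 in Car1 and 55.7 in Fcer1a cells. In the B220lo library it stood at 25.4 CPM in 58 Hlf, 27.9 in 102 Elane and 48.1 in 26 Fcer1a cells, and at 0.687 CPM in Cd79a cells. It was listed because the control Kit+ library had none while another control library did. The cause was not tested, nor was whether what sets these libraries apart in Rpl39l bears on the other differences between SI and control Kit+ cells, or between deleted and B220lo Cd79a cells.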

How the results depend on the processing

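No paired analysis was possible because each group is 1 library, and for the same reason there are no replicates to leave out. The comparison of deleted Fcer1a cells (4 cells) and its alternatives were not run. Over 10 alternatives the log2 ratio of the share kept its direction in all 10 for Hlf and Elane cells in both libraries, for SI Car1 cells and for both Cd79a comparisons, in 8 for SI Fcer1a cells and in 5 for deleted Car1 cells. Leaving out barcodes under 10% or over 2% mitochondrial UMIs, and counting relative to ribosomal protein UMIs, were chosen after seeing the data. The cause of the shifts below was not tested.

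With a stricter cell filter the log2 ratio of the share was -0.072 in deleted Hlf, 0.28 in no-contig and 0.13 in heavy-only cells. With doublets kept it was -0.11 and -0.071 in deleted and SI Hlf, -0.14 and -0.12 in Elane, -0.019 and -0.030 in Car1, -0.025 in SI Fcer1a, 0.30 in no-contig and 0.14 in heavy-only cells. In cells of 1 group only it was -0.0040 and -0.068 in Hlf, -0.094 in deleted Elane, 0.018 and -0.021 in Car1, -0.026 in SI Fcer1a and 0.30 in no-contig cells. With doubled thresholds it was -0.030 and -0.043 in Hlf, -0.093 and -0.11 in Elane, -0.022 in SI Car1, 0.0061 in SI Fcer1a, 0.22 in no-contig and 0.093 in heavy-only cells. As the mean of the cells' own shares it was -0.10 and -0.074 in Hlf, -0.14 and -0.14 in Elane, -0.0049 and -0.046 in Car1, -0.0028 in SI Fcer1a, 0.45 in no-contig and 0.34 in heavy-only cells. Within a depth range it was -0.015 and -0.032 in Hlf, -0.12 and -0.087 in Elane, -0.050 and -0.074 in Car1, 0.035 in SI Fcer1a, 0.48 in no-contig and 0.47 in heavy-only cells. Without mitochondrial genes in the total it was -0.063 in SI Hlf, -0.11 in SI Elane, 0.29 in no-contig and 0.14 in heavy-only cells, and with -ps rows added -0.11 in SI Elane and 0.14 in heavy-only cells. Without barcodes under 10% it was -0.058 and -0.051 in Hlf, -0.068 and -0.081 in Elane, -0.025 in SI Car1, -0.0085 in SI Fcer1a, 0.19 in no-contig and 0.073 in heavy-only cells. Without barcodes over 2% mitochondrial UMIs it was -0.057 in deleted Hlf, -0.076 and -0.093 in Elane, 0.26 in no-contig and 0.11 in heavy-only cells.

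Of 180 counts of members past the limit under alternatives, 142 stayed within 1.5 times. With CPM taken without ribosomal protein and mitochondrial genes, 2 were lower in deleted Hlf, 1 higher in SI Fcer1a and 40 higher in no-contig cells. Without barcodes under 10%, 9 were higher in no-contig cells and 5 higher and 7 lower in heavy-only cells. In cells of 1 group only, 4 were higher in deleted Hlf and 0 in deleted Car1 cells. With doublets kept, and with a pseudocount of 10 CPM, 0 were lower in deleted Elane and 0 higher in deleted Car1 cells. At a fold of 1.5, no-contig cells kept 3 higher and 1 lower, heavy-only cells 2 higher and 1 lower, and 0 were left in the other directions except 1 lower in deleted Hlf cells. With doubled thresholds, 4 were higher in deleted Hlf, 12 higher in no-contig, and 5 higher and 7 lower in heavy-only cells. With no filter on low values, 2 were lower in each Hlf comparison. Relative to ribosomal protein UMIs, 2 were higher in deleted Hlf, 3 higher in deleted Elane, 0 lower in SI Elane and SI Car1, 3 higher and 10 lower in no-contig, and 5 higher and 12 lower in heavy-only cells. Of 115 log2 ratios of named genes, 868 of 920 values under alternatives kept their direction.

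Depth limits low members most: Rps27rt rests on 35 UMIs in deleted Hlf cells.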
